A study of Linum usitatissimum with 8 samples.

Results

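The genes described here are the 150 most evenly expressed genes among those well expressed throughout flax seed development. RNA was sequenced from Linum usitatissimum seeds of the cultivar Heiya No.14 at 4 stages, which the labels call DAP5, DAP10, DAP20 and DAP30 without spelling the names out. Each stage had 2 libraries, and no treatment or mutation is named for any group. The labels do not tell whether both libraries of a stage are from different plants. The p-values therefore speak only of the spread among these 8 libraries, and that spread may be technical. Each level is given in CPM, the share of a library's total count that a gene took, scaled by a constant factor. A gene had to reach 50 CPM in every library, which 1357 of the 38306 genes with Lus IDs did. Of these, the 150 with the lowest coefficient of variation (CV, the SD over the 8 libraries divided by the mean) were taken. The evenness of these genes is therefore how they were chosen and not a finding, and what follows describes them.

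Reference genes, often called housekeeping genes, serve as the yardstick against which other transcripts are measured, for example in quantitative PCR. They usually act in basic processes such as protein synthesis, the cytoskeleton or protein turnover, and a useful one keeps a like level across the samples to be compared. A developing oilseed is a demanding case. As the embryo fills, transcripts for storage proteins and oil body proteins come to take a large part of the messenger RNA, so that any other transcript can lose share without losing abundance. The choice of scale between libraries then decides which genes look even. The deposited table gives no gene names, so the genes appear by ID, and roles, sequences and positions are not given. Flax carries many duplicated gene pairs, and reads split between near-identical copies could not be recognised.

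Library totals lay between 12951493 and 27691831 counts, and a member had between 662 and 15043 counts in a library. At this depth counting error is small. The observed CV of the median member was 12.3%, against 2.16% from counting alone. Together the members held a steady share of the counts, from 2.003% in DAP20 replicate 1 to 2.20% in DAP30 replicate 1. The 1357 genes of at least 50 CPM together held between 25.5% and 33.2%, with both DAP30 libraries highest.

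The CV of the 150 members ran from 4.58% to 15.1%, with a median of 12.3%. For the 1207 other genes of at least 50 CPM it ran from 15.1% to 125%, with a median of 30.5%. The highest library of a member exceeded its lowest by a median of 1.42-fold and at most by 1.72-fold. This ratio was under 1.5 in 109 of the 150 members and in 13 of the 1207 other genes. Like the CV it measures spread over the same 8 libraries, so this difference follows from the choice.

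The gene with the lowest CV was Lus10023387.g.BGIv1.0, at 4.58%. It had 357 and 346 CPM in the DAP5 libraries, 359.7 and 336 in those of DAP10, 328 and 342 in those of DAP20 and 363 and 318 in those of DAP30. Both DAP5 libraries lay above both DAP20 libraries, while DAP10 and DAP30 overlapped every other stage, and both the highest and the lowest value came from DAP30. Lus10029879.g.BGIv1.0 followed with a CV of 5.16%, and had 93.4 and 91.6 CPM in the DAP5 libraries, 99.9 and 106 in those of DAP10, 92.4 and 94.7 in those of DAP20 and 100.01 and 97.4 in those of DAP30. Here both DAP10 libraries and both DAP30 libraries lay above every library of DAP5 and DAP20, though by a few CPM. Lus10042028.g.BGIv1.0 had a CV of 5.35%, with 132 and 142 CPM in the DAP5 libraries, 129 and 145 in those of DAP10, 126 and 133 in those of DAP20 and 127 and 129 in those of DAP30. Its DAP10 libraries differed from each other by more than any pair of stage means did.

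**Figure D1:**
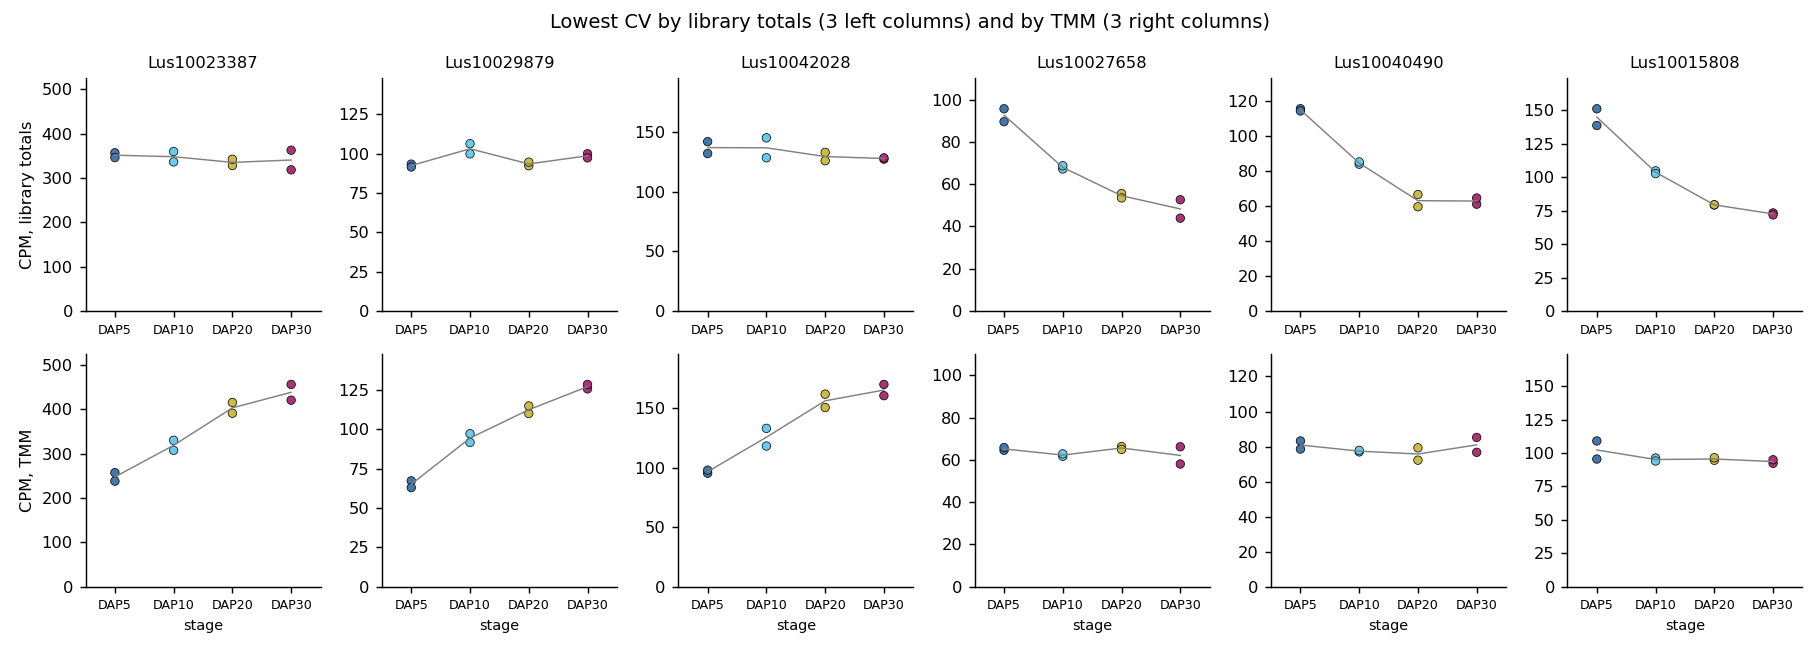
Level of 6 genes by stage, as CPM by library totals (upper row) and CPM scaled by TMM (lower row), with 1 point per library and a line through the stage means; each gene has its own axis from 0. The 3 genes on the left have the lowest CV by library totals and are level in the upper row but climb in the lower, where Lus10023387.g.BGIv1.0 has a mean of 438 CPM at DAP30 against 248 at DAP5; the 3 genes on the right have the lowest CV under TMM and show the opposite.

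At the limit of the list the genes were less even. Lus10023171.g.BGIv1.0, next to last in the list with a CV of 15.04%, had 199 and 206 CPM in the DAP5 libraries, 240.5 and 246 in those of DAP10, 272 and 316 in those of DAP20 and 239.8 and 263 in those of DAP30. Both DAP20 libraries stood above all others and both DAP5 libraries below. Lus10011038.g.BGIv1.0, last in the list with a CV of 15.1%, had 82.4 and 79.0 CPM in the DAP5 libraries, 66.5 and 70.3 in those of DAP10, 58.3 and 55.3 in those of DAP20 and 60.8 and 59.1 in those of DAP30. Its DAP5 libraries were the highest. The 2 genes just outside were much like these. Lus10015294.g.BGIv1.0 had a CV of 15.1% and ran from 84.7 to 128 CPM, and Lus10036138.g.BGIv1.0 had a CV of 15.1% and ran from 88.9 to 129.6 CPM. The limit thus cuts through a continuous range of values.

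The variation of the members was split within and between stages. The median member had a CV of 7.19% among libraries of the same stage, and differences between stage means made up a median of 76.4% of its squared deviations, where 42.86% is the share to be had with no stage difference. The same share was 92.7% in the 1207 other genes. A choice by low CV leaves out genes with large stage differences, so the lower share of the members follows in part from it. Replicates of DAP20 differed most, where both libraries had a median CV of 7.03%, while this was 4.97% at DAP5, 4.05% at DAP10 and 5.82% at DAP30. The direction of the stage differences was mixed. Stage means peaked at DAP5 in 47 members, at DAP10 in 43, at DAP20 in 20 and at DAP30 in 40. Both DAP30 libraries lay above both DAP5 libraries in 51 members and below them in 54, and in the other 45 the stages overlapped. Such gaps were not counted in other genes, so these counts have no share over all genes beside them. They show nothing particular to the members. The stage means climbed at every step in 4 members and declined at every step in 8.

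Members spanned a moderate range of levels. The mean ran from 55.3 to 489 CPM with a median of 112 CPM, against a median of 131 CPM in the 1207 other genes, and none was among the 100 most abundant genes of any library. The most abundant, Lus10037360.g.BGIv1.0, had 409.8 and 431 CPM in the DAP5 libraries, 452 and 472 in those of DAP10, 507 and 477 in those of DAP20 and 617 and 548 in those of DAP30, with both DAP30 libraries on top. Lus10004272.g.BGIv1.0 came next, with 482 and 543 CPM in the DAP5 libraries, 514 and 579 in those of DAP10, 416 and 369 in those of DAP20 and 509 and 469 in those of DAP30. This gene was lowest at DAP20. The 2 members with the lowest means lay close to the 50 CPM floor. Lus10023449.g.BGIv1.0 ran from 51.1 to 62.6 CPM and Lus10016577.g.BGIv1.0 from 50.4 to 63.4 CPM, with CVs of 7.36% and 7.55%. Levels of different genes can be compared only per length. Divided by the deposited gene length, a length of undefined kind, the mean level ran from 10.6 to 374 CPM per kb with a median of 60.6, and Lus10004272.g.BGIv1.0 was the highest. The 1207 other genes had a median of 58.1 CPM per kb.

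Gene length was not used in the choice. The median length of the members was 2178 bases, against 2529 bases in the 1207 other genes and 2030 bases in the 27454 tested genes with Lus IDs. Lengths of members ran from 555 to 8077 bases, and 32 members were shorter than 1000 bases. Across the 1357 genes, which are not independent replicates and share the same 8 libraries, the CV had a Spearman correlation of 0.05 with length and of 0.38 with mean CPM. The floor builds in part of the relation with mean CPM, since a gene with a mean just above 50 CPM and no library below it cannot vary much downwards.

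The members did not stay level under a second scale. TMM (trimmed mean of M-values) scales libraries so that the bulk of genes keeps its level, and its factors relative to library totals were 1.39 and 1.45 in the DAP5 libraries, 1.09 and 1.09 in those of DAP10, 0.839 and 0.824 in those of DAP20 and 0.795 and 0.757 in those of DAP30. A gene with a constant share of the counts is by construction 1.83-fold higher at DAP30 than at DAP5 on this scale. Relative to its own mean, the median member stood at 0.707 and 0.696 in the DAP5 libraries, 0.892 and 0.932 in those of DAP10, 1.10 and 1.13 in those of DAP20 and 1.28 and 1.26 in those of DAP30. The median CV of the members was 25.7% under TMM, against 12.3% under library totals. Neither scale gives transcripts per cell or per seed. In whole seeds fewer cells of a type and less RNA per cell cannot be told apart.

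**Figure D2:**
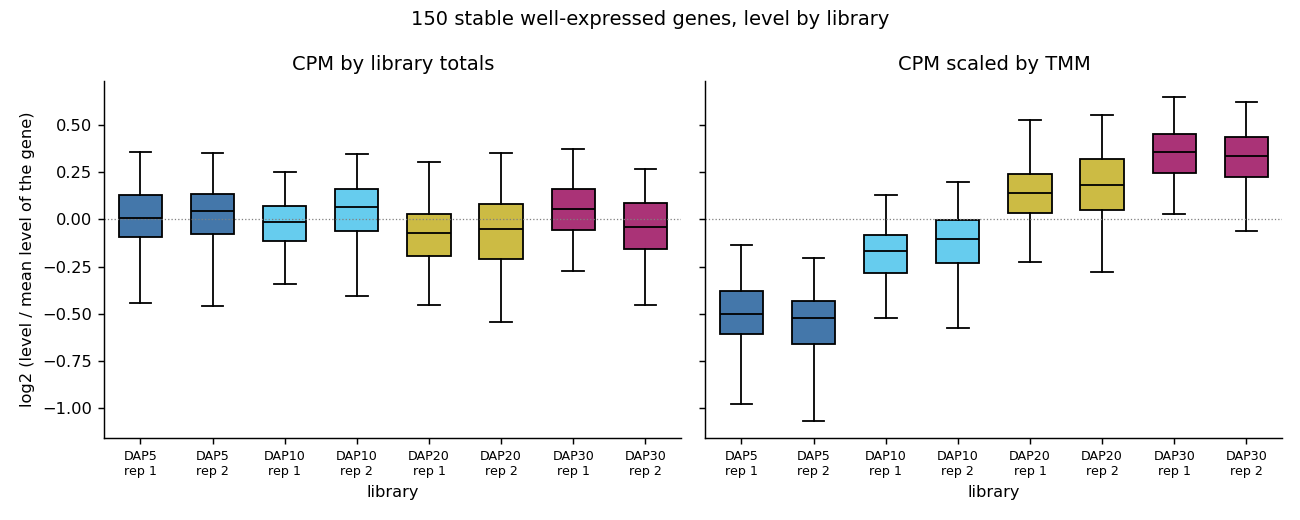
Level of the 150 members in each library, as log2 of the level over the mean level of the same gene, by library totals (left) and under TMM (right); boxes show the quartiles and the median, and whiskers the lowest and highest member. By library totals the medians stay near 0 in all 8 libraries, whereas under TMM they climb from DAP5 to DAP30.

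The stages were compared with edgeR's quasi-likelihood test on the counts, with a false discovery rate (FDR) below 0.05 over 28749 genes as the limit for a call. The members were chosen on the same libraries, so their calls are given as a description. Under TMM a near-constant share becomes a rise from DAP5 to DAP30, so the direction of these calls follows from the choice. The same direction at another limit or with DESeq2 is no further support. Under TMM all but 1 of the 150 members were called higher and 0 lower at DAP30 than at DAP5, beside 31.3% of all genes tested called higher and 38.9% called lower. At an unadjusted p below 0.05, 150 were higher and 0 lower, and DESeq2 called 148 higher, beside 68.9% of all genes called either way. The log2 fold changes of the members ran from 0.39 to 1.41 with a median of 0.84, against a median of -0.24 over all genes tested and of 0.83 over the 1207 other well-expressed genes. Of these 1207 genes, 741 were called higher and 90 lower. In all 150 members both DAP30 libraries lay above both DAP5 libraries, a gap that was not counted in other genes. For the members this could not come out otherwise. No member varied by more than 1.72-fold by library totals, and the TMM factors of any DAP5 and any DAP30 library differ by more. The 1 member not called, Lus10033856.g.BGIv1.0, had a log2 fold change of 0.39 (edgeR FDR = 0.0613). In the joint test of all 4 stages 140 members were called, beside 79.0% of all genes.

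With library totals in place of TMM few members were called. At DAP30 against DAP5, 6 were called higher and 5 lower, beside 17.3% and 55.4% of all genes tested. The log2 fold changes ran from -0.48 to 0.54 with a median of -0.03, while the median of all genes tested was -1.11. The 95% interval of a member's log2 fold change had a median half-width of 0.38, so differences smaller than this could not be resolved, and a member that was not called is not thereby shown to be constant. In the joint test 4 members were called, beside 81.7% of all genes. These 4 were singled out after their values were seen. Lus10002652.g.BGIv1.0 (edgeR FDR = 0.0416), Lus10022460.g.BGIv1.0 (edgeR FDR = 0.0365) and Lus10016764.g.BGIv1.0 (edgeR FDR = 0.0356) were called, as was Lus10011038.g.BGIv1.0 (edgeR FDR = 0.0316), the last gene of the list.

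**Figure D3:**
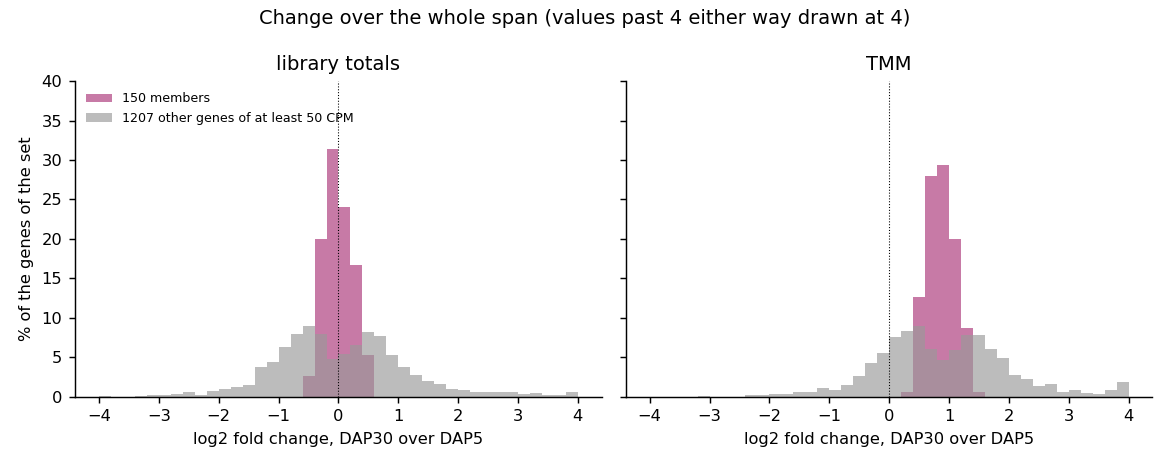
Distribution of the log2 fold change, DAP30 over DAP5, for the 150 members and the 1207 other genes of at least 50 CPM in every library, by library totals (left) and under TMM (right); the vertical axis is the percent of each set. The members centre at -0.03 by library totals and at 0.84 under TMM, and the other genes form a broader distribution, with a dip where the members were taken out.

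Single steps showed the same dependence on scale in smaller amounts. The TMM factors fall at every step, so a constant share rises at each step on that scale. From DAP5 to DAP10, 41 members (27.3%) were called higher and 0 lower under TMM, beside 12.4% and 11.2% of all genes. The median log2 fold change of the members was 0.39. From DAP10 to DAP20, 44 (29.3%) were called higher and 0 lower, beside 25.5% and 27.8%, with a median of 0.30. From DAP20 to DAP30, 13 (8.67%) were called higher and 0 lower, beside 15.1% and 17.4%, with a median of 0.18. The share of members called higher was thus close to that of all genes from DAP10 to DAP20 and below it from DAP20 to DAP30. Of the 1207 other well-expressed genes, 290, 512 and 346 were called higher in the 3 steps and 48, 132 and 78 lower. No member was lower at an unadjusted p below 0.05 in any of these steps under edgeR with TMM, and DESeq2 called 58, 38 and 40 members, all higher, beside 26.1%, 52.5% and 34.9% of all genes. Under library totals the numbers called in the 3 steps were 2, 7 and 1, beside 31.7%, 52.9% and 31.1% of all genes.

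These step counts rest on few libraries and depend on the fit. For DAP30 over DAP20 the count was 0 with only these 2 stages in the fit (11 at an unadjusted p below 0.05), 2 with upper-quartile factors and 5 with no filter on low counts. For DAP20 over DAP10 it was 21 with only these 2 stages in the fit, 21 with upper-quartile factors and 27 with no filter. For DAP10 over DAP5 the count was 0 without either DAP10 library (51 and 36 members at an unadjusted p below 0.05 without replicate 1 and replicate 2), 8 and 4 without DAP5 replicate 1 and replicate 2, and 21 and 20 without DAP30 replicate 1 and replicate 2. For DAP20 over DAP10 it was 8 and 7 without DAP10 replicate 1 and replicate 2, 26 and 25 without DAP30 replicate 1 and replicate 2, and 25 without DAP20 replicate 2. For DAP30 over DAP20 it was 0 without either DAP30 library (14 and 15 at an unadjusted p below 0.05), 1 without either DAP10 library, 8 without either DAP5 library and 4 without DAP20 replicate 1.

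Among the members the largest changes under TMM were those of Lus10021886.g.BGIv1.0 and Lus10009252.g.BGIv1.0. On the TMM scale Lus10021886.g.BGIv1.0 had 94.0 ± 2.35 CPM in the DAP5 libraries, 149.1 ± 2.04 in those of DAP10, 203 ± 14.8 in those of DAP20 and 250.2 ± 4.61 in those of DAP30 (SD, n = 2), and DAP30 exceeded DAP5 by 1.41 ± 0.15 on the log2 scale (SE, edgeR FDR = 0.000117). Lus10009252.g.BGIv1.0 had 97.8 ± 6.88, 179 ± 5.89, 198 ± 7.81 and 249.9 ± 5.04 CPM at the same stages (SD, n = 2), and DAP30 exceeded DAP5 by 1.35 ± 0.15 on the log2 scale (SE, edgeR FDR = 0.000155). In both genes both DAP30 libraries lay above all others. By library totals their log2 fold changes were 0.54 ± 0.15 and 0.48 ± 0.16 (SE, edgeR FDR = 0.0136 and 0.0262), so they were among the 6 members called higher there too. The highest CV under TMM was that of Lus10004874.g.BGIv1.0, at 36.4%. It had 223 ± 11.7, 275 ± 11.2, 402 ± 1.88 and 538 ± 17.6 CPM on the TMM scale from DAP5 to DAP30 (SD, n = 2), and its CV by library totals was 14.8%.

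A list chosen on the TMM scale held almost none of the same genes. Of the 150 genes with the lowest CV among the 1329 with at least 50 TMM-scaled CPM in every library, 5 were members, which is 3.33% of each list. The 5 were singled out after the lists were seen. They are Lus10038910.g.BGIv1.0, Lus10037607.g.BGIv1.0, Lus10031436.g.BGIv1.0, Lus10011401.g.BGIv1.0 and Lus10011038.g.BGIv1.0, with CVs from 12.5% to 15.1% by library totals and from 12.4% to 15.7% under TMM. Of the members, 127 passed the floor on the TMM scale, and their median rank there was 518. On the TMM scale the 3 lowest CVs were those of Lus10027658.g.BGIv1.0 (4.46%), Lus10040490.g.BGIv1.0 (5.09%) and Lus10015808.g.BGIv1.0 (5.36%). By library totals these 3 genes were all lower at DAP30 than at DAP5. Over the last step Lus10040490.g.BGIv1.0 did not decline clearly, with 66.5 and 59.5 CPM in the DAP20 libraries and 61.0 and 64.5 in those of DAP30. Lus10015808.g.BGIv1.0 had 151.3 and 139 CPM in the DAP5 libraries, 105 and 103 in those of DAP10, 79.3 and 79.4 in those of DAP20 and 73.3 and 71.9 in those of DAP30, a CV of 30.5%. All 150 genes of the TMM list had a lower mean share at DAP30 than at DAP5, with a median log2 ratio of -0.77. This was fixed by their choice. None of them varied by more than 1.72-fold under TMM, and the TMM factors of any DAP5 and any DAP30 library differ by more.

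**Figure D4:**
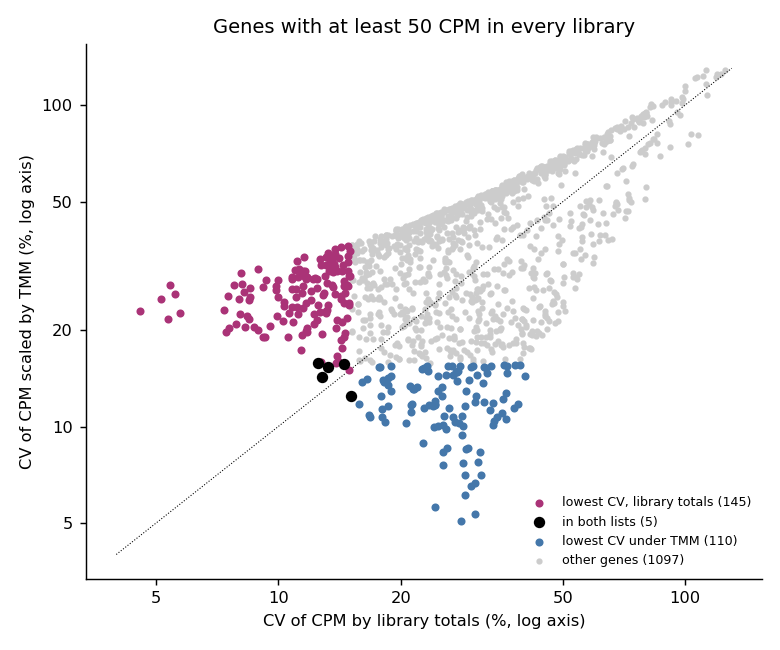
CV over the 8 libraries by library totals (horizontal) and under TMM (vertical) for the 1357 genes with at least 50 CPM in every library, on log axes; the dotted line marks equal CVs. The members form the left edge, 5 genes lie in both lists, and 35 genes of the TMM list fall below the 50 CPM floor of library totals and are not drawn.

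Some genes had fairly low CVs on both scales. Ranked by the larger of both CVs, the first members were Lus10037607.g.BGIv1.0 with 12.8% by library totals and 14.3% under TMM, Lus10033471.g.BGIv1.0 with 14.9% and 14.996%, and Lus10011038.g.BGIv1.0 with 15.1% and 12.4%. Lus10037607.g.BGIv1.0 had 139 and 125 CPM in the DAP5 libraries, 113 and 112 in those of DAP10, 102 and 107 in those of DAP20 and 96.9 and 98.0 in those of DAP30 by library totals. On the TMM scale it had 99.9 and 85.7 CPM in the DAP5 libraries, 104 and 103 in those of DAP10, 122 and 129 in those of DAP20 and 122 and 129 in those of DAP30. The same counts thus decline on the first scale and climb on the second. Lus10037607.g.BGIv1.0 was called lower at DAP30 than at DAP5 by library totals (edgeR FDR = 0.0263) and higher under TMM (edgeR FDR = 0.0298). So was Lus10011038.g.BGIv1.0 (edgeR FDR = 0.0218 and 0.0185). Lus10033471.g.BGIv1.0 was called higher under TMM (edgeR FDR = 0.00952) but not called by library totals (edgeR FDR = 0.0985). Its TMM-scaled level was 45.7 CPM in DAP5 replicate 1, below the 50 CPM floor. With a limit of 20% for the CV, 327 of the 1357 genes passed by library totals, 246 under TMM and 68 under both. All 68 also passed with 2 further scales, the median-of-ratios (RLE) and the upper quartile, and 24 of them were members. These scales shift DAP30 against DAP5 by 1.78 and 1.54 relative to library totals, less than the 1.83 of TMM. They thus lie between the first 2 scales, and passing them follows nearly from passing both. With libraries scaled to the sum of the 1357 genes, the 3 genes named first had CVs of 20.6%, 21.4% and 22.1%, past the limit.

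Other scales gave other results. With upper-quartile factors the median CV of the members was 20.04% and 20 members were in the list chosen on that scale. When the 283 genes that were among the 100 most abundant of any library were left out of the totals, the median CV was 15.3%, 58 members were in the list, and 65 members were called higher and 0 lower at DAP30 than at DAP5, beside 22.8% and 47.8% of all genes. The sum of the 1357 well-expressed genes shifts DAP30 against DAP5 by a factor of 0.780 relative to library totals, the opposite direction to the 1.83 of TMM. On this scale 67 members were called lower and 0 higher, beside 62.7% and 13.1% of all genes. The direction of the members between DAP5 and DAP30 therefore differed between scales. These 2 scales were added after the data were seen.

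Ratios between genes within a library do not depend on the scale. For each member, the SD over the 8 libraries of its log2 ratio to each other member was averaged, a measure used to rank reference genes. This mean SD ran from 0.18 to 0.29 with a median of 0.23 among the members, was 0.24 in the median gene of the TMM list against its own list, and was 0.63 in the median of the 1357 genes against each other. Small values within a list follow in part from the choice by CV. The same was measured for every set against all 1357 genes. The median was then 0.52 in the members, with a range from 0.49 to 0.56. It was 0.59 in the 115 genes of the TMM list that are among the 1357, and 0.63 in all 1357. The floor that picked the 1357 genes was set on library totals. The 1207 others had a median log2 fold change, DAP30 over DAP5, of -0.04 on that scale and 0.83 under TMM. The members were chosen as level by library totals too, so these medians cannot tell which list is more even. Measured against the other members, the lowest mean SDs were those of Lus10023387.g.BGIv1.0, Lus10029879.g.BGIv1.0 and Lus10024446.g.BGIv1.0, all at 0.18. Lus10024446.g.BGIv1.0 had 184 and 183 CPM in the DAP5 libraries, 178 and 177 in those of DAP10, 151.9 and 171 in those of DAP20 and 176 and 177 in those of DAP30, with both DAP20 libraries lowest. The ratio between the lists was not constant. The geometric mean of the 150 members over that of the TMM list was 0.899 and 0.893 in the DAP5 libraries, 1.13 and 1.13 in those of DAP10, 1.39 and 1.48 in those of DAP20 and 1.54 and 1.55 in those of DAP30. Each list was chosen to be level on its own scale, so this change follows from the choice and from the shift between the scales.

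The evenness of such genes could be read in libraries that the choice had not used. When 150 genes were chosen on the 4 libraries of replicate 1, from 1597 genes of at least 50 CPM in them, their median CV by library totals was 9.51% in those libraries and 17.0% in the 4 libraries of replicate 2. The 1447 genes not chosen had a median of 33.7% there. Chosen on replicate 2, the 150 genes had a median CV of 11.1% in those libraries and 14.7% in replicate 1, against 32.2% in the 1306 genes not chosen. In the libraries not used, 57 and 79 of the 150 genes stayed under 15%, which is 38.0% and 52.7% of each list, against 6.01% and 10.03% of the genes not chosen. Under TMM the shares were 44.7% and 55.3%, against 4.77% and 7.51%. The choice under TMM gave medians of 15.8% and 14.0% in the libraries not used, against 36.3% and 36.3% in the genes not chosen. Libraries of both replicates come from the same 4 stages, so this reads repeatability within each scale and not which scale is right. The labels do not tell whether the replicates are from different plants, so the repeatability may be technical only. The lists chosen on each replicate alone shared 53 genes by library totals, 35.3% of each, and held 87 and 99 of the 150 members. Under TMM they shared 66 genes, 44.0% of each.

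**Figure D5:**
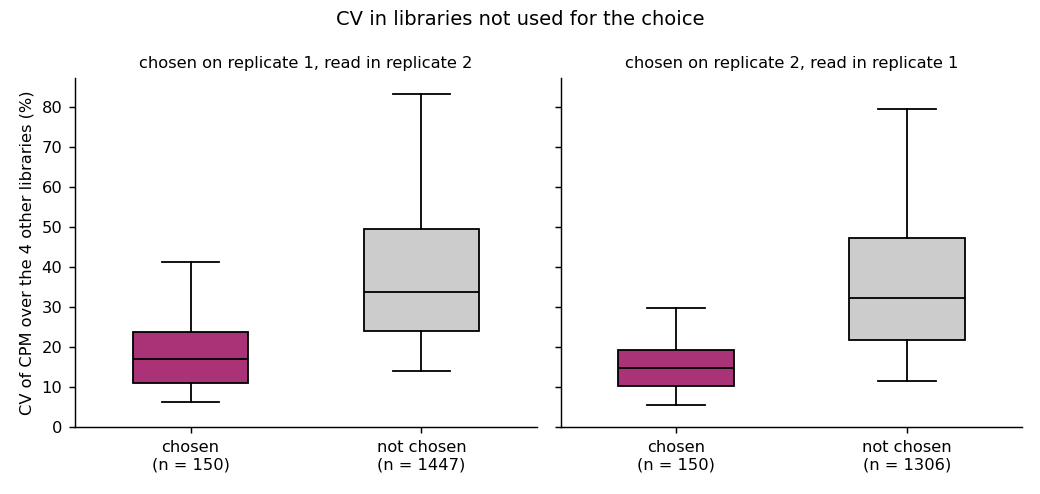
CV of CPM by library totals in the 4 libraries not used for the choice, for the 150 chosen genes and for the genes not chosen; boxes show the quartiles and median, and whiskers the 5th and 95th percentiles. The medians of the chosen genes are 17.0% and 14.7%, below the 33.7% and 32.2% of the genes not chosen.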

How the data were processed

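RNA was sequenced from flax seeds at 4 stages with 2 libraries each. Per the labels' protocols, TRIzol was used for total RNA and a NEBNext Ultra RNA kit for the libraries. The deposited table from the authors holds raw read counts as whole numbers, with no scaling, beside a gene length in bases. The aligner, counting tool, genome build, use of strand and definition of length were not given in the sources used here. Its rows numbered 40518, 2212 of them gene models added by the authors, and each column was matched to its sample by library code. No other column of sample values was present.

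CPM used library totals. Members were the 150 genes with Lus IDs and the lowest CV among those with at least 50 CPM in every library. Counts were tested in R 4.3.3 with edgeR 4.0.16 (filterByExpr, minimum count 10, minimum total 15, TMM, quasi-likelihood test, stage as the only term, all 8 libraries). Benjamini-Hochberg adjustment covered the 28749 genes tested. The SE was taken as the size of the log2 fold change over the root of F. TMM-scaled CPM was brought to a geometric mean factor of 1. Other scales, DESeq2 1.42.0 and left-out libraries served as alternatives. The members and lists were chosen with earlier results of these data known.

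Genes named in the text were the members with the lowest CV, at the limit of the list, with the highest and lowest mean, the highest level per kb, the lowest larger CV of both scales, the lowest mean SD of ratios, the largest called change under TMM and the highest CV under TMM, and the genes with the lowest CV under TMM. No member was called lower under TMM, so no fall is named. A list of common reference gene families was not used because the table holds no names.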

Additional observations from a re-analysis of the deposited data

How the results depend on the processing

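The counts of members called depended on the scale, and in the single steps as much on single libraries. With library totals they were 2 for DAP10 over DAP5, 7 for DAP20 over DAP10 (2 higher and 5 lower, a reversed balance), 1 for DAP30 over DAP20, 11 for DAP30 over DAP5 and 4 across the stages. With totals free of the most abundant genes they were 22, 16, 1 (lower, reversed), 65 and 63 in the same order, and with the sum of the well-expressed genes 2 (lower, reversed), 4, 20 (lower, reversed), 67 (lower, reversed) and 43. For DAP20 over DAP10 the count was 29 with RLE factors, 21 with upper-quartile factors, 27 with no filter, 28 at a mean limit of 5 CPM and 21 with only these 2 stages in the fit. For DAP30 over DAP20 it was 21 with RLE, 2 with the upper quartile, 40 by DESeq2, 5 with no filter and 0 with only these 2 stages in the fit (11 at an unadjusted p below 0.05). For DAP10 over DAP5 it was 27 with no filter. The causes were not tested. Over all genes, DAP20 over DAP10 had 15323 calls of 28749 in the main fit, 15273 with RLE and 11598 of 19391 at the mean limit. DAP30 over DAP20 had 9338, 9485 with RLE and 10036 by DESeq2, each of 28749. DAP10 over DAP5 had 6772 of 28749, and 6365 of 35972 with no filter. With every library kept and no block, other counts of members stayed within 1.5 times those reported.

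Leaving out 1 library at a time rests its stage on a lone library, taken to vary as much as the rest. Calls over all genes changed in these fits as well as the counts of members. The counts then ran from 0 to 53 for DAP10 over DAP5, 7 to 39 for DAP20 over DAP10, 0 to 9 for DAP30 over DAP20, 125 to 150 for DAP30 over DAP5 and 118 to 145 across the stages. The replicate numbers were not taken to pair the libraries. The correlation of replicate differences between stages ran from -0.03 to 0.15 over all genes and from -0.12 to 0.27 over the members. With a replicate block 31, 29, 5 and 146 members were called in the 3 steps and the span, and 135 across the stages.

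The median CV of 12.3% was 25.7% under TMM, 24.7% under RLE, 20.04% with the upper quartile, 15.3% without the most abundant genes and 14.95% with the sum of the well-expressed genes, and ran from 11.4% to 12.6% when single libraries were left out. Of the 150 members, 5 were chosen under TMM, 9 under RLE, 20 with the upper quartile, 58 without the most abundant genes, 71 with the sum of the well-expressed genes, 77 with a floor of 25 CPM, 67 with a floor of 100 CPM, 87 on replicate 1 and 99 on replicate 2. The SD of log2 CPM kept 140, stage means kept 126, allowing added gene models kept all 150, and left-out libraries kept from 120 to 133.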

Other observations

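Used as the yardstick for all other genes, the members gave a picture close to that of library totals. With each library scaled to the geometric mean of the 150 members, 5021 genes were called higher and 15940 lower at DAP30 than at DAP5 (edgeR FDR below 0.05), so that 24.0% of the called genes were higher, and all genes tested had a median log2 fold change of -1.11. With the 150 genes of lowest CV under TMM as the yardstick, 8560 were called higher and 11544 lower, so that 42.6% were higher, and the median was -0.32. Each list was chosen on one of these scales, so that each stands close to its own scale by construction.

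Longer lists from the same pool share more genes by construction, and the overlaps are given as a description. The 50 genes of lowest CV on each scale shared 0 genes, the 300 of lowest CV shared 58 (19.3% of each list) and the 600 of lowest CV shared 286 (47.7% of each list).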
